A study of Mus musculus with 18 samples.

Results

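A list of 8 genes that mark the enteric nervous system was followed through colon RNA-seq libraries of WT and *Cldn2*KO mice. The rule names the genes by symbol, as known markers, and uses none of their values. They are *Elavl4*, *Uchl1*, *Ret*, *Vip*, *Chat* and *Nos1* for neurons and *Sox10* and *S100b* for glia, 8 of the 47729 genes in the count table. All 8 passed the filter on low counts, which kept 16937 genes for testing. *Cldn2* encodes claudin-2, a tight junction protein of the gut epithelium that forms a pore for cations and water, and its level was used to check the genotype labels.

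The enteric nervous system lies within the gut wall, in the myenteric plexus between the muscle layers and in the submucosal plexus nearer the epithelium. Its neurons drive contraction of the muscle through acetylcholine and relaxation through nitric oxide and vasoactive intestinal peptide (VIP), and VIP neurons also drive secretion by the epithelium. Neurons and glia both descend from neural crest cells, which need the receptor Ret, its ligand Gdnf and endothelin signalling to colonize the gut. Enteric glia surround the neurons and extend into the mucosa. A library of colon RNA holds neuron and glia RNA in proportion to how much of the wall entered the sample, and levels are shares of a library. A low level can therefore mean less of the wall in the sample, more RNA from other cells, fewer cells of a type or less RNA per cell. These cannot be told apart in bulk RNA.

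The mice had a C57BL/6 background, and WT and *Cldn2*KO mice were littermates matched for age and sex, per the study's methods. Each genotype had a control group, a group sampled in the repair phase after colitis caused by dextran sulfate sodium (DSS-Recovery, called recovery here), and a group with colitis-associated colon cancer (AOM-DSS, called AOM/DSS here). AOM/DSS mice received 1 dose of azoxymethane, a carcinogen, at 10 mg/kg and 3 cycles of 2.5% DSS. The labels attach this protocol to every sample, controls included, and it is read here as that of the AOM/DSS groups only. Each of the 6 groups held 3 libraries, 18 in all. The ages of the mice and the DSS schedule of the recovery groups are not given in the sources used here. The labels name no promoter or Cre for the knockout, and the study's captions count mice per group in the number of the libraries, which reads as 1 mouse a library, though pooling is not addressed. The p-values measure only the spread between these libraries.

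Library depth was 17.6 to 27.4 M counted reads. The knockout was visible in each *Cldn2*KO library, where *Cldn2* had between 1 and 12 reads, against at least 680 reads in each WT library. The 6 recovery libraries and WT control replicate 2 stood apart from the other 11. In these 7 libraries *Hoxb13* and *Hoxd13*, which mark the distal end of the colon, reached at most 0.502 and 0.262 CPM (reads scaled to a common library size), against at least 198 and 192 CPM in the 11 others. The study states that distal colon was used for the recovery comparison, and these markers go against that for the recovery libraries. WT control replicate 2 also held 61.0 CPM of the fat cell gene *Adipoq*, where replicates 1 and 3 had 1.06 and 0.274 CPM. Mitochondrial genes held 7.01% to 9.67% of the reads in the recovery libraries and 8.54% in WT control replicate 2. In the 11 other libraries they held 3.88% to 7.03%. *Xist*, which is read from the inactive X of females, was above 10 CPM in 6 libraries, those of replicates 2 and 3 of WT recovery, *Cldn2*KO recovery and *Cldn2*KO AOM/DSS. The other 12 libraries held no more than 1.16 CPM of it. By this measure sex was not matched between control and recovery in either genotype, between *Cldn2*KO control and AOM/DSS, or between genotypes in AOM/DSS, while all WT control and WT AOM/DSS libraries were alike. Recovery and region cannot be told apart in comparisons of recovery with control.

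The proximal promoters of 3 members are shown because *Elavl4* and *S100b* were the pair of members with the highest Pearson correlation, and because *Vip* changed its ratio to *Elavl4* between libraries. Windows were matched in RefSeq (GRCm38.p6) for 6 of the 8 members, and for *Elavl4*, which has 4, the 1 nearest the annotated start of the gene is shown. Each line gives the 250 bases before the annotated start, 5′ to 3′ on the gene's strand, and capitals mark a TATA box (TATAAA) or the core of a cAMP response element (TGACGTC). The windows are chr4:110351912-110352161 on the minus strand for *Elavl4*, chr10:76253586-76253835 on the plus strand for *S100b* and chr10:5638968-5639217 on the plus strand for *Vip*.
Elavl4: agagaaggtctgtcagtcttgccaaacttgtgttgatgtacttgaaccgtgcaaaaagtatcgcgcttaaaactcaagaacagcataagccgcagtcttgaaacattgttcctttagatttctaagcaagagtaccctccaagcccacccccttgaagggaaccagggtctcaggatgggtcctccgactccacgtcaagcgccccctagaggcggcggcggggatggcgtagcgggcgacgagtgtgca
S100b: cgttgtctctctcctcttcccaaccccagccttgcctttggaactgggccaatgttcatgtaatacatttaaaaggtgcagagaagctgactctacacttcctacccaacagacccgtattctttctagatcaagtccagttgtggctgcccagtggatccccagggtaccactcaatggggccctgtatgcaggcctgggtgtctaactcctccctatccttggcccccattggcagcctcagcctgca
Vip: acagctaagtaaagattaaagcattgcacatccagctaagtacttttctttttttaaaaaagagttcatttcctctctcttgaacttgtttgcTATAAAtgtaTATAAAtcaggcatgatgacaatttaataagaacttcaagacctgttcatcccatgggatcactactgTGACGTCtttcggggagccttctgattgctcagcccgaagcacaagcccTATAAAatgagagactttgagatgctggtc
The *Vip* window held TATAAA from -157 to -152, from -147 to -142 and from -30 to -25, counted back from the start, and TGACGTC from -79 to -73. Both motifs were searched on both strands. The TATA box occurred in 12.4% of the 32851 windows of this length and the response element core in 2.78%. A SOX motif searched in the same way (ACAAAG) occurred in 16.5%. None of the 3 occurred in the *Elavl4* or *S100b* window.

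The 8 genes differed widely in level. In WT controls, *Vip*, the gene of vasoactive intestinal peptide (chromosome 10), had the highest level for its length, 26.9 ± 10.95 CPM per kb of exon (SD, n = 3). *Uchl1*, a neuronal ubiquitin hydrolase (chromosome 5), followed at 8.79 ± 3.89 CPM per kb, and its lowest library lay above the highest library of the next gene. *S100b* (chromosome 10), a calcium-binding protein of glia, stood at 2.01 ± 1.03 CPM per kb and *Ret* (chromosome 6), the receptor kinase for ligands of the Gdnf family, at 1.67 ± 0.481. *Elavl4* (chromosome 4), an RNA-binding protein of neurons, stood at 1.28 ± 0.378, *Nos1* (chromosome 5), the neuronal nitric oxide synthase, at 1.26 ± 0.239, and *Sox10* (chromosome 15), a transcription factor of neural crest and glia, at 0.799 ± 0.376 CPM per kb. From *S100b* to *Sox10*, each gene overlapped its neighbour in this order. *Chat* (chromosome 14), which makes acetylcholine, was lowest at 0.267 ± 0.0664 CPM per kb and overlapped none of the others.

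Between 0 and 32 *Chat* reads were counted per library, against 124 to 1310 for *Vip*, 50 to 366 for *Uchl1*, 57 to 441 for *Ret*, 15 to 171 for *Elavl4*, 6 to 549 for *Nos1*, 8 to 93 for *Sox10* and 4 to 96 for *S100b*. *Chat* therefore had the largest counting error, while *Nos1* had the largest SEs in the fits. Counts of *Uchl1*, *Chat*, *Nos1* and *S100b* are uncertain in another way, since each overlaps another annotated gene and the strand setting of the counting is not stated. *Uchl1* overlaps the antisense RNA *Uchl1os*, *S100b* overlaps *Dip2a* on the other strand, *Nos1* overlaps *Gm26995* on the other strand and *Gm37028* on its own, and *Chat* contains *Slc18a3*, the vesicular acetylcholine transporter, on its own strand and overlaps *Gm2990* on the other.

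**Figure D1:**
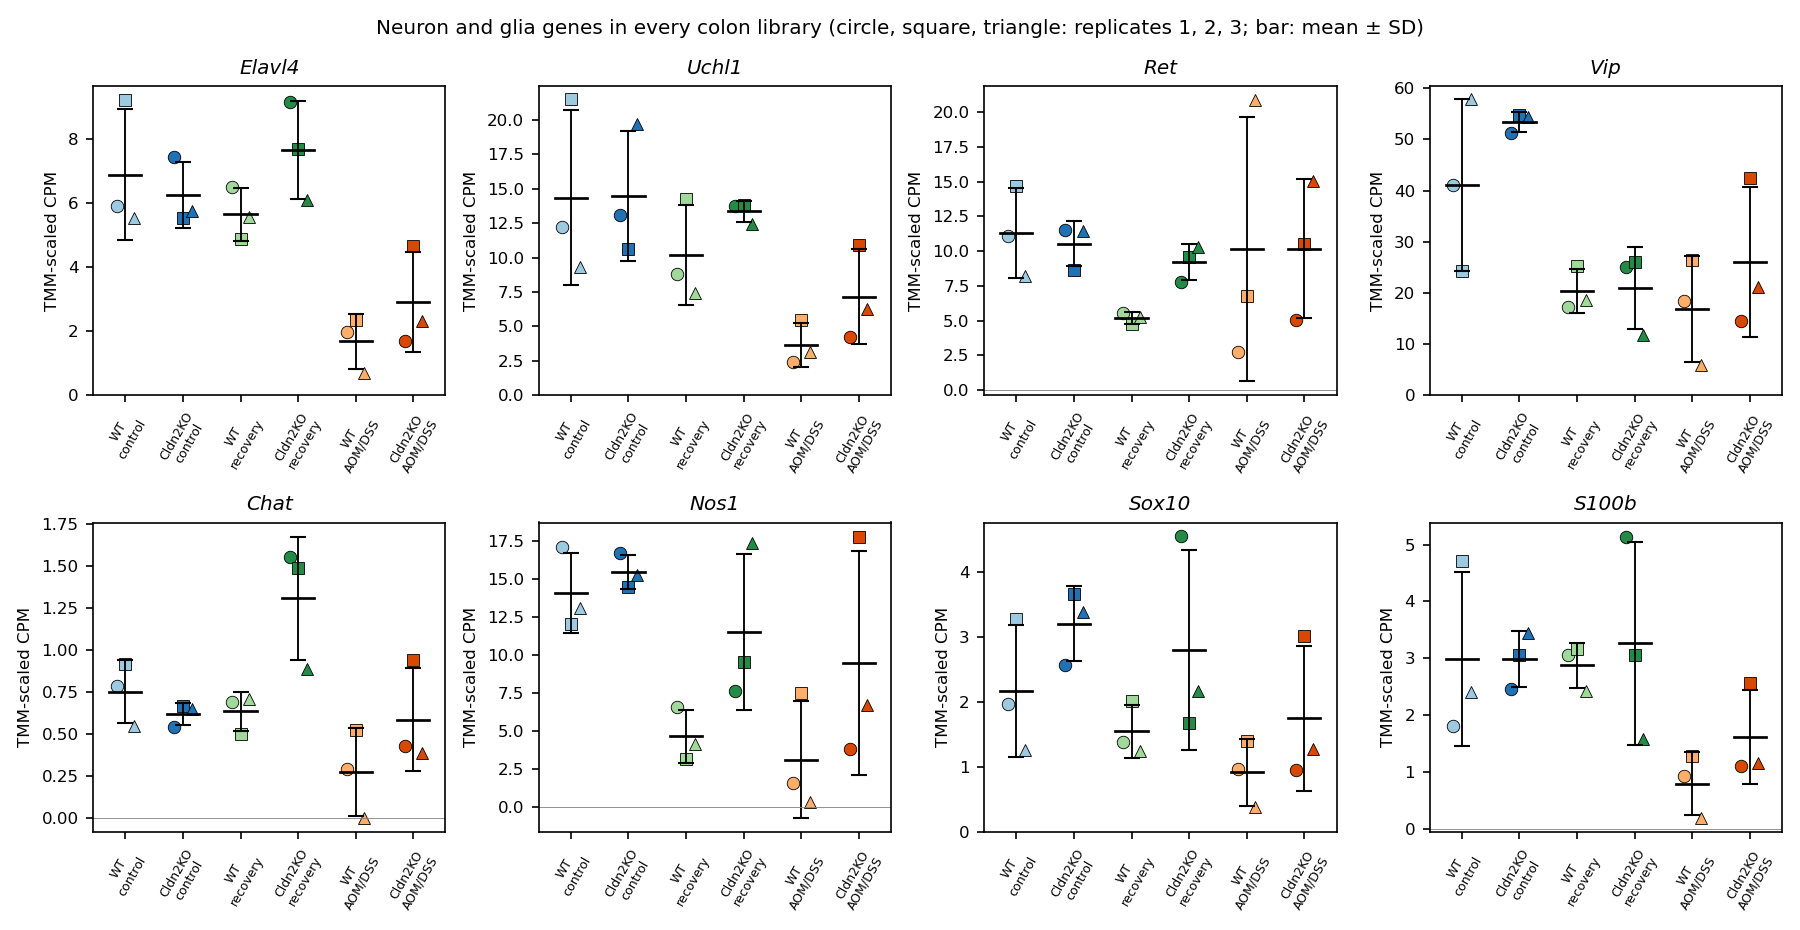
TMM-scaled CPM (vertical axis) of the 8 genes in each of the 6 groups (horizontal axis). Each symbol is a library, horizontal bars are group means and error bars are SD (n = 3). The WT AOM/DSS libraries lie below all WT controls for *Elavl4*, *Uchl1*, *Chat*, *Nos1* and *S100b*, while *Ret* spans from 2.76 to 20.9 CPM there.

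AOM/DSS was compared with control colon in each genotype, which asks how large a share of the colon RNA the neuron and glia genes made up in the cancer model. In WT mice, *Elavl4*, *Uchl1* and *S100b* fell to 0.246, 0.257 and 0.270 times their control levels. These 3 of the 8 members were called lower at an adjusted p under 0.05 (edgeR's quasi-likelihood test, Benjamini-Hochberg adjustment over all 16937 genes), against 6.58% of all genes tested called lower and 10.4% called in either direction. The fitted value was negative for all 8, with a median log2 fold change of -1.66, against 0.01 over all genes tested. At an unadjusted p under 0.05 the test gave 7 of the 8, all but *Ret*, against 29.9% of all genes.

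*Elavl4* measured 5.90, 9.23 and 5.54 CPM in WT controls, and 1.98, 2.36 and 0.709 CPM in the WT AOM/DSS libraries. Every AOM/DSS library was below every control. The log2 fold change was -2.02 (SE 0.421, adjusted p 0.0147 in edgeR), and the adjusted p ranged up to 0.166 over 14 alternative settings, 11 of which kept the call. *Uchl1* measured 12.2, 21.5 and 9.32 CPM in WT controls, and 2.42, 5.47 and 3.12 CPM in the WT AOM/DSS libraries. Here too the groups did not overlap, with a log2 fold change of -1.96 (SE 0.416, adjusted p 0.0159 in edgeR, up to 0.165 over the alternatives) and 10 of 14 settings keeping the call.

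The glia genes followed. *S100b* measured 1.81, 4.71 and 2.41 CPM in WT controls, and 0.920, 1.27 and 0.189 CPM in the WT AOM/DSS libraries. The groups did not overlap, and the log2 fold change was -1.89 (SE 0.581, adjusted p 0.0497 in edgeR). This call sat at the threshold, and 3 of 14 settings kept it, with adjusted p up to 0.416. *Sox10* measured 1.97, 3.27 and 1.26 CPM in WT controls, and 0.968, 1.40 and 0.378 CPM in the WT AOM/DSS libraries. Its groups overlapped, and its log2 fold change of -1.23 did not pass (SE 0.546, adjusted p 0.145 in edgeR).

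The transmitter genes had negative fitted values that did not pass in edgeR with all libraries, though *Nos1* and *Vip* passed in DESeq2 (adjusted p 0.0178 and 0.0425) and in limma-voom (adjusted p 0.0377 and 0.0244). *Nos1* measured 17.1, 12.1 and 13.1 CPM in WT controls, and 1.55, 7.49 and 0.284 CPM in the WT AOM/DSS libraries. All of its AOM/DSS libraries were below all controls, but they were spread so widely that the log2 fold change of -2.17, the most negative among the members, had an SE of 0.763 and an edgeR adjusted p of 0.0752. Leaving out each library in turn, the *Nos1* value ran from -3.92 to -1.64. It was called without WT AOM/DSS replicate 2 (-3.92, adjusted p 0.0116 in edgeR). *Vip* measured 41.2, 24.4 and 57.8 CPM in WT controls, and 18.4, 26.4 and 5.86 CPM in the WT AOM/DSS libraries. The groups overlapped through WT control replicate 2, and the log2 fold change was -1.28 (SE 0.488, adjusted p 0.0949 in edgeR). *Chat* measured 0.786, 0.917 and 0.548 CPM in WT controls, and 0.290, 0.525 and 0 CPM in the WT AOM/DSS libraries. No read of *Chat* was counted in WT AOM/DSS replicate 3, which allows up to 0.142 CPM (3 reads, counting error only), and the log2 fold change was -1.43 (SE 0.654, adjusted p 0.156 in edgeR). With *Elavl4*, *Uchl1* and *S100b*, this makes 5 members whose AOM/DSS libraries were all below the controls in WT, against 17.3% of all genes tested.

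*Ret* was the exception. It measured 11.1, 14.7 and 8.17 CPM in WT controls, and 2.76, 6.78 and 20.9 CPM in the WT AOM/DSS libraries. Replicates 1 and 2 of AOM/DSS were below all controls and replicate 3 was above all other libraries of the series. The fitted log2 fold change was -0.16 (SE 0.514, adjusted p 0.875 in edgeR) and its sign changed when 1 library was left out. Replicate 3 was the lowest of the 18 libraries for 6 members and the highest for *Ret*. It was also the highest of the 18 for *Krt13*, a keratin of squamous epithelium, at 24.1 CPM, and for *Avil*, which encodes advillin and marks tuft cells, at 40.3 CPM, against 0.968 and 12.1 CPM of *Krt13* and 2.37 and 17.1 CPM of *Avil* in WT AOM/DSS replicates 1 and 2. In *Cldn2*KO AOM/DSS, *Krt13* was at 15.6, 1.72 and 21.1 CPM and *Avil* at 16.97, 2.79 and 13.2 CPM. The rest of each list was lower as a sum in WT AOM/DSS replicate 3. The other tuft cell genes summed to 9.46 CPM there, against 17.8 and 16.6 CPM in replicates 1 and 2, and the other squamous genes to 115 CPM, against 547 and 484. The squamous gene *Tgm3* held 95.1% of the summed CPM of its list over the 18 libraries, and the tuft cell gene *Dclk1* 34.4% of its list. These sums therefore need not follow the other genes of the lists. *Krt13* and *Avil* were singled out after their values were seen, and their part in the *Ret* values was not tested. The *Ret* coreceptor *Gfra1* in WT AOM/DSS replicate 3 was at 0.331 CPM, while replicates 1 and 2 had 0.920 and 2.32 CPM.

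Leaving out single libraries ended WT calls while the fitted values stayed negative. Without WT AOM/DSS replicate 3, 0 members were called, at log2 fold changes of -1.65 for *Elavl4* (adjusted p 0.0537 in edgeR), -1.85 for *Uchl1* (adjusted p 0.069 in edgeR) and -1.42 for *S100b* (adjusted p 0.153 in edgeR), and without WT control replicate 2 only *Elavl4* was called (log2 fold change -1.78, adjusted p 0.0485 in edgeR). Over all genes, 0.733% and 1.61% were called lower in these 2 fits. DESeq2 called 5 members lower (against 10.9% of all genes), limma-voom 4 (*Elavl4*, *Uchl1*, *Nos1* and *Vip*, against 8.99%), and a fit of only the WT control and WT AOM/DSS libraries 0 (against 0.0447% called in either direction).

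In *Cldn2*KO mice the same comparison gave smaller fitted values and no call in edgeR, while limma-voom called 3 members lower, against 9.05% of all genes. The size of these values depended on single libraries. Leaving out each in turn gave -1.595 to -0.833 for *Elavl4*, -1.431 to -0.699 for *Uchl1* and -1.554 to -0.745 for *Vip*. It gave -1.491 to -0.577 for *Sox10* and -1.369 to -0.677 for *S100b*. *Elavl4* stood at 7.44, 5.55 and 5.76 CPM in the controls and at 1.71, 4.67 and 2.32 CPM in AOM/DSS, which did not overlap, with a log2 fold change of -1.10 (SE 0.404, adjusted p 0.222 in edgeR). *Uchl1* stood at 13.1, 10.6 and 19.7 CPM in the controls and at 4.23, 10.9 and 6.27 CPM in AOM/DSS, with a log2 fold change of -1.01 (SE 0.401, adjusted p 0.249 in edgeR). *Vip* stood at 51.2, 54.8 and 54.4 CPM in the controls and at 14.5, 42.5 and 21.2 CPM in AOM/DSS, which did not overlap, with a log2 fold change of -1.03 (SE 0.483, adjusted p 0.327 in edgeR). Both *Elavl4* and *Vip* thus had all AOM/DSS libraries below the controls, 2 of the 8 members against 14.1% of all genes tested.

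The glia genes and the other transmitter genes overlapped between the *Cldn2*KO groups. *S100b* stood at 2.47, 3.05 and 3.44 CPM in the *Cldn2*KO controls and at 1.09, 2.56 and 1.16 CPM in AOM/DSS. *Sox10* stood at 2.56, 3.66 and 3.39 CPM in the controls and at 0.951, 3.02 and 1.27 CPM in AOM/DSS. *Nos1* ran from 14.5 to 16.7 CPM in the controls and stood at 3.803, 17.8 and 6.73 CPM in AOM/DSS, so that its highest AOM/DSS library was above all 3 controls. *Ret* stood at 5.04, 10.5 and 15.01 CPM in AOM/DSS, on both sides of its controls at 8.66 to 11.5 CPM. Replicate 2 was the highest library of the *Cldn2*KO AOM/DSS group for 7 members, all but *Ret*.

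edgeR called 0 of the 8 members in *Cldn2*KO mice, against 0.195% of all genes tested. At an unadjusted p under 0.05 it gave 3 (*Elavl4*, *Uchl1* and *Vip*), against 15.2% of all genes, and these were the 3 called by limma-voom, while DESeq2 called 0, against 1.4% of all genes called lower. Whether the response to AOM/DSS differed between genotypes was tested by an interaction term. It gave 0 members, against 0.0118% of all genes, 0 members at an unadjusted p under 0.05, and 0 with DESeq2 (0.515% of all genes) and limma-voom (1.7%). The difference in response, *Cldn2*KO minus WT, was 0.92 for *Elavl4* (SE 0.573, adjusted p 0.676 in edgeR), 0.95 for *Uchl1* (SE 0.568, adjusted p 0.672 in edgeR) and 1.003 for *S100b* (SE 0.791, adjusted p 0.747 in edgeR) on the log2 scale. Leaving out each library in turn, it ran from 0.418 to 1.243 for *Elavl4*, 0.518 to 1.343 for *Uchl1* and 0.507 to 1.515 for *S100b*. A smaller response in *Cldn2*KO mice was therefore not shown.

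Levels were also compared between genotypes within AOM/DSS. All 8 members had a positive fitted value, with a median log2 difference of 0.95, *Cldn2*KO against WT, while the median over all genes tested was 0.00. All 12 smooth muscle genes were positive in the same comparison, with a median of 1.11 and 0 called in edgeR, while they were 12 of 12 positive in controls (median 0.91), where the members had a median of 0.01, and 2 of 12 positive in recovery (median -0.13). Their part in the values of the members was not tested. The value of *Ret* was 0.01 and changed sign when a library was left out. edgeR called 0 members, against 0.0059% of all genes (1 gene). At an unadjusted p under 0.05 it gave 2, against 5.6% of all genes, *Uchl1* (log2 difference 0.96, SE 0.408, adjusted p 0.862 in edgeR) and *Nos1* (1.601, SE 0.751, adjusted p 0.862 in edgeR). Leaving out each library in turn, *Uchl1* ran from 0.526 to 1.351 and *Nos1* from 0.771 to 3.345. DESeq2 and limma-voom called 0 members, against 0.0237% and 0.0059% of all genes, and no member had groups that did not overlap.

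**Figure D2:**
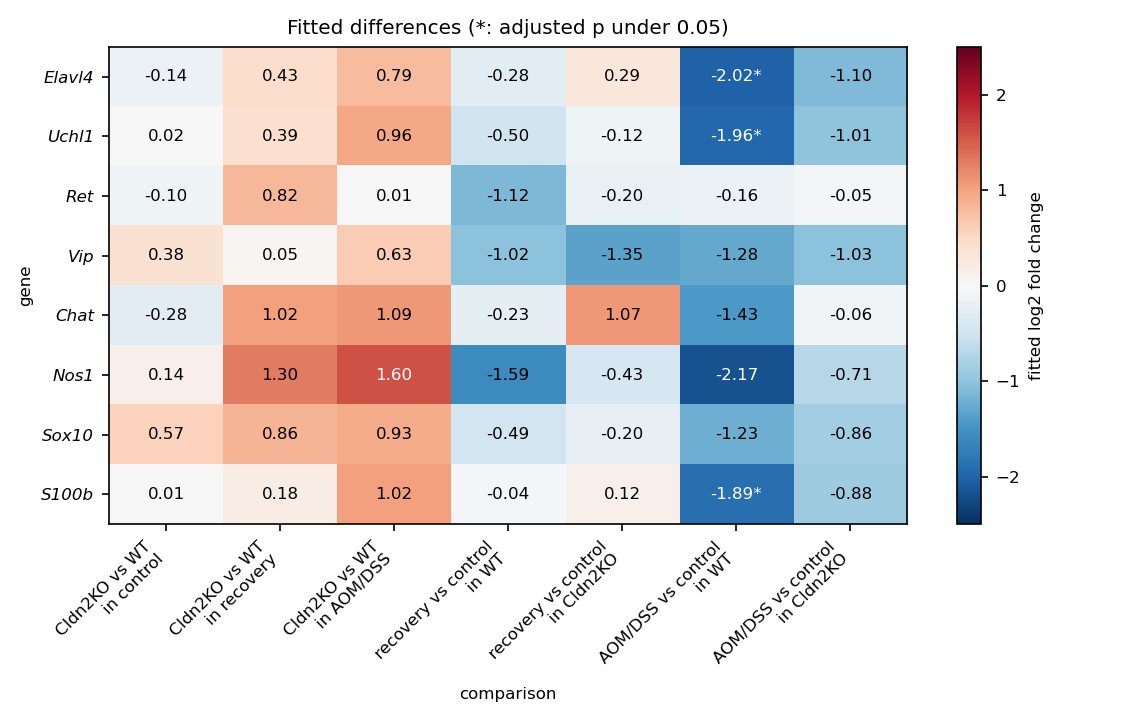
Fitted log2 fold changes (colour and printed value) of the 8 genes (rows) in 7 comparisons (columns), with an asterisk for an edgeR adjusted p under 0.05. The 3 asterisks stand in the column of AOM/DSS against control in WT mice, at -2.02, -1.96 and -1.89.

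Other neuron genes were counted over lists of known genes. Of 20 genes of neuron identity and structure, 9 fell in WT AOM/DSS and 0 rose, where 6.58% of all genes were called lower, with a median log2 fold change of -1.78. *Tubb3*, a neuronal tubulin, fell from 12.7 ± 3.13 to 2.76 ± 1.30 CPM (log2 fold change -2.19, SE 0.365, adjusted p 0.00562 in edgeR). *Hand2*, a transcription factor of neural crest derivatives, fell from 5.17 ± 1.89 to 1.02 ± 0.488 CPM (-2.33, SE 0.426, adjusted p 0.00936 in edgeR). *Elavl3*, a paralog of *Elavl4*, fell from 1.82 ± 0.404 to 0.395 ± 0.239 CPM (-2.18, SE 0.448, adjusted p 0.0142 in edgeR), and *Tagln3*, a neuronal relative of transgelin, from 2.84 ± 1.29 to 0.654 ± 0.308 CPM (-2.09, SE 0.441, adjusted p 0.0156 in edgeR; SD, n = 3). *Syt1*, *Chrna3*, *Prph* and *Gap43* were also among the 9. In *Cldn2*KO mice the same 20 genes had a median of -0.73, with 18 negative and 0 called, where only 0.195% of all genes were called in either direction. The count of 9 depended on single libraries in WT: 3 of the 20 were called without WT control replicate 2 (median -1.47) and 2 without WT AOM/DSS replicate 3 (median -1.42), in fits where calls over all genes also dropped, to 1.61% and 0.733% called lower.

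Neuropeptide genes and the receptors of Gdnf and endothelin had calls of their own in WT AOM/DSS. Of the 7 neuropeptide genes tested, 4 fell and 0 rose, beside the same 6.58% of all genes called lower. *Penk*, the precursor of enkephalins, fell from 14.5 ± 2.42 to 3.82 ± 2.90 CPM (log2 fold change -1.92, SE 0.446, adjusted p 0.0218 in edgeR). *Gal*, the galanin gene, had an edgeR adjusted p of 0.0293, *Grp*, the gastrin-releasing peptide gene, one of 0.0250, and *Cartpt*, which encodes a peptide of enteric neurons, one of 0.0445. For *Gal* and *Grp*, WT control replicate 2 was far above the other WT controls, at 12.5 CPM of *Gal* against 4.21 and 2.58 and at 13.03 CPM of *Grp* against 2.05 and 2.19.

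Of 9 genes of Ret and endothelin signalling, 3 fell and 0 rose, again beside 6.58% of all genes. *Gfra1*, the Gdnf coreceptor of Ret, fell from 6.32 ± 3.57 to 1.19 ± 1.02 CPM (log2 fold change -2.39, SE 0.625, adjusted p 0.0306 in edgeR). *Gfra2*, the neurturin coreceptor, fell from 3.70 ± 1.004 to 1.18 ± 0.882 CPM (-1.64, SE 0.475, adjusted p 0.0414 in edgeR). *Ednrb*, the endothelin receptor of neural crest cells, fell from 11.1 ± 6.94 to 3.06 ± 0.983 CPM (-1.85, SE 0.382, adjusted p 0.0143 in edgeR; SD, n = 3). The glia list, which leaves out *Sox10* and *S100b*, had 12 of 14 genes tested, of which 0 were called in WT AOM/DSS, with a median of -0.82 and 11 negative. In the same fits without WT control replicate 2 and without WT AOM/DSS replicate 3, 0 genes of the neuropeptide and the Ret and endothelin lists were called, with medians of -1.49 and -0.77 in the first case and of -1.58 and -1.15 in the second. None of these 3 lists had a call in *Cldn2*KO AOM/DSS, where 0.195% of all genes were called and the medians were -0.48, -0.12 and -0.15 in the same order.

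**Figure D3:**
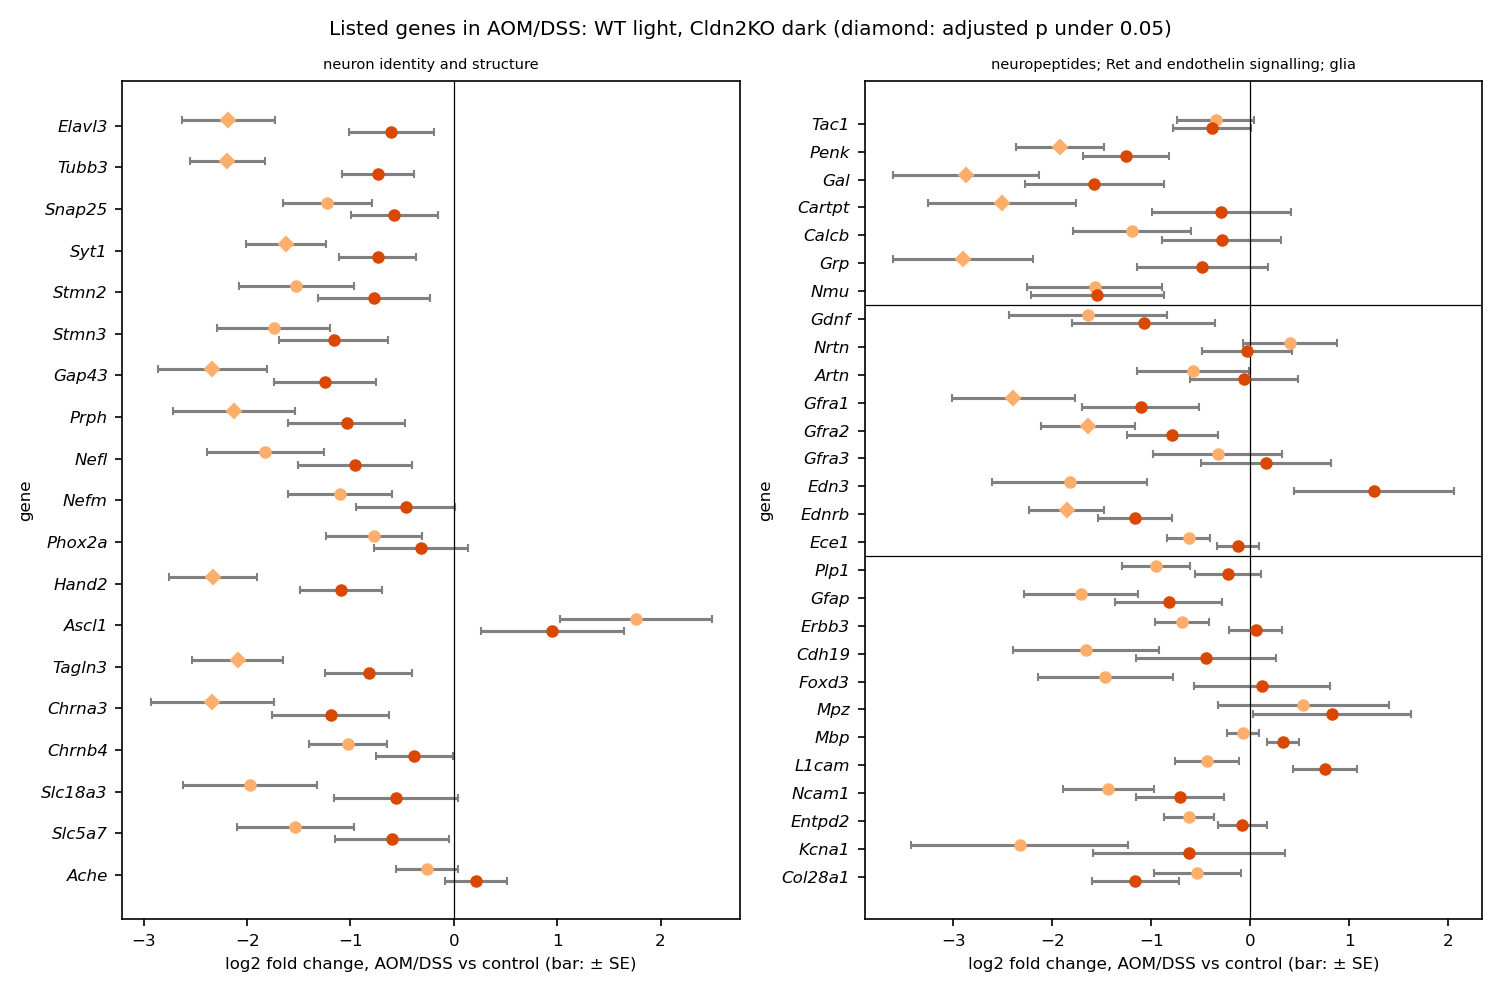
Log2 fold change of AOM/DSS against control (horizontal axis, bars ± SE) for the listed genes (vertical axis) of neuron identity on the left and of neuropeptides, Ret and endothelin signalling and glia on the right. WT is light and *Cldn2*KO dark, and diamonds mark an edgeR adjusted p under 0.05. All diamonds are WT values below 0, and 1 gene of the neuron list is not drawn.

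Smooth muscle genes, which share the muscle layers with the myenteric plexus, also had lower levels in WT AOM/DSS. Of 12 smooth muscle genes, 6 fell, where 6.58% of all genes were called lower, with a median of -1.44. All 12 had a negative value in both genotypes, with 0 called in *Cldn2*KO mice, where 0.195% of all genes were called. In WT 0 were called without WT control replicate 2 (median -1.54) or without WT AOM/DSS replicate 3 (median -1.09), beside 1.61% and 0.733% of all genes. Their summed level was 4574 to 6814 CPM in the WT controls and 1933, 3518 and 698 CPM in WT AOM/DSS, lowest in the same replicate 3 that was lowest for 6 members. In *Cldn2*KO AOM/DSS it was 3234, 7018 and 2885 CPM, highest in the same replicate 2 that was highest for 7 members. The part of muscle content in the differences of the members was not tested. The counts for other cell types are to be read beside the same shares of 6.58%, 1.61% and 0.733% of all genes. Epithelial genes had 4 of 9 lower in WT AOM/DSS (median -0.65) and 2 without either of these libraries alone, fibroblast genes 0 of 6, leukocyte genes 0 of 6, tuft cell genes 0 of 6, and genes of interstitial cells of Cajal 0 of 3. Adipocyte genes had 2 of 4 lower and 0 without either library alone, against controls that include WT control replicate 2 at 154 CPM of summed adipocyte genes, where the other WT controls had 15.2 and 10.7. Skeletal muscle genes had 1 of 5 lower and enteroendocrine genes 1 of 10, both 0 without either library alone, squamous epithelium genes 0 of 5 and melanocyte genes 0 of 2.

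**Figure D4:**
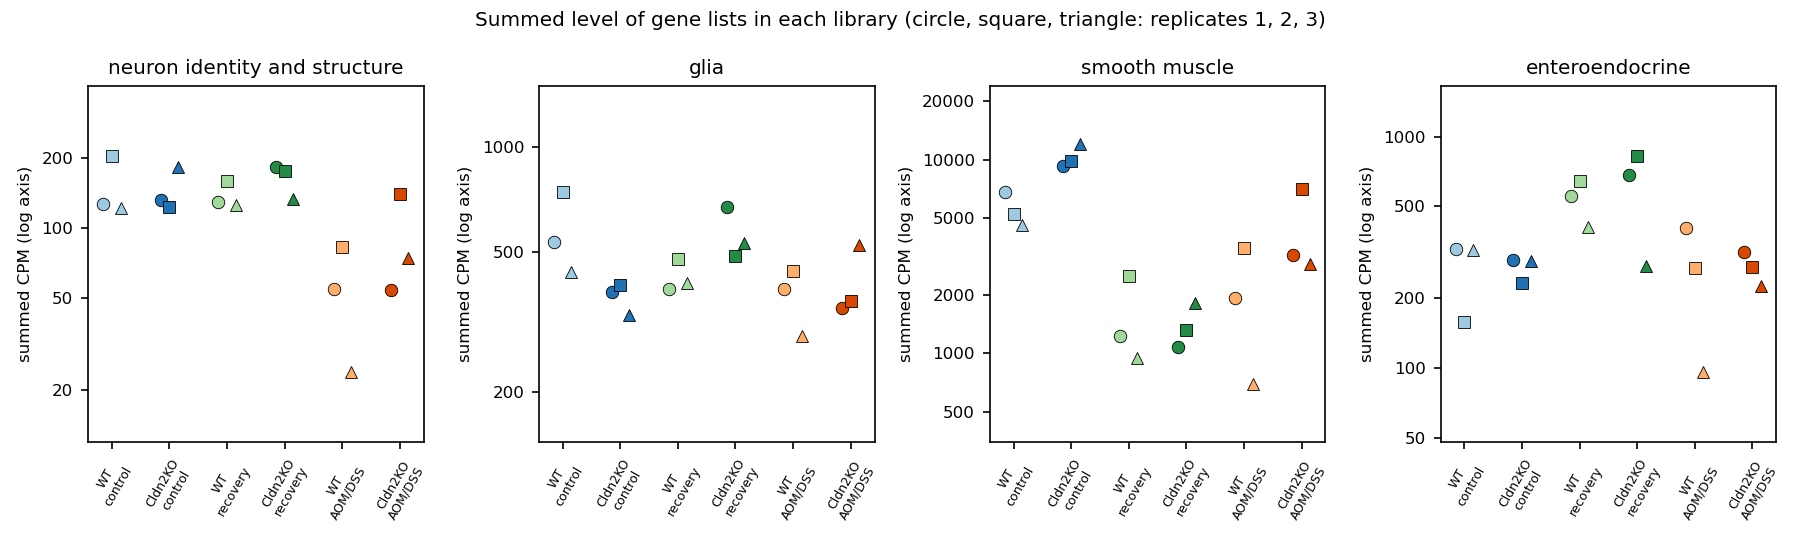
Summed CPM per library (vertical log axis) of the lists of neuron identity, glia, smooth muscle and enteroendocrine genes in the 6 groups (horizontal axis), with 1 symbol per library. In recovery, smooth muscle lies at 946 to 2495 CPM, below all controls, while the neuron list lies at 125 to 182 CPM, within the range of the controls (121 to 203 CPM).

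Recovery was compared with control colon in each genotype. Here *Elavl4*, *Uchl1* and the glia genes had small fitted differences and no call. *Elavl4* stood at 6.51, 4.88 and 5.56 CPM in the WT recovery libraries, then 9.16, 7.70 and 6.10 CPM in *Cldn2*KO recovery, with log2 fold changes of -0.28 (SE 0.399) and 0.29 (SE 0.397). *Uchl1* stood at 8.79, 14.3 and 7.45 CPM and at 13.8, 13.8 and 12.5 CPM, with log2 fold changes of -0.50 (SE 0.399) and -0.12 (SE 0.396). *S100b* stood at 3.05, 3.16 and 2.42 CPM and at 5.14, 3.06 and 1.57 CPM, with log2 fold changes of -0.04 (SE 0.547) and 0.12 (SE 0.543). *Sox10* stood at 1.38, 2.01 and 1.24 CPM and at 4.55, 1.67 and 2.17 CPM, with log2 fold changes of -0.49 (SE 0.536) and -0.20 (SE 0.518). Recovery and control overlapped for all 4 genes in both genotypes, and the signs of *Elavl4*, *Uchl1*, *Sox10* and *S100b* changed under at least 1 alternative in 1 genotype or both.

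*Nos1*, *Ret* and *Vip* had negative fitted values in recovery that did not pass the test, and *Chat* had values of either sign. *Nos1* stood at 6.59, 3.16 and 4.14 CPM in WT recovery, below all WT controls (log2 fold change -1.59, SE 0.747, adjusted p 0.137 in edgeR), and at 7.60, 9.56 and 17.4 CPM in *Cldn2*KO recovery, which overlapped its controls (-0.43, SE 0.722). *Ret* stood at 5.58, 4.73 and 5.26 CPM in WT recovery, below all WT controls (-1.12, SE 0.526, adjusted p 0.137 in edgeR), and at 7.76, 9.56 and 10.3 CPM in *Cldn2*KO recovery (-0.20, SE 0.515). *Vip* stood at 17.2, 25.2 and 18.7 CPM in WT recovery (-1.02, SE 0.486, adjusted p 0.144 in edgeR) and at 25.1, 26.1 and 11.8 CPM in *Cldn2*KO recovery, below all *Cldn2*KO controls (-1.35, SE 0.488, adjusted p 0.0656 in edgeR). *Chat* stood at 0.692, 0.502 and 0.710 CPM in the WT recovery libraries, then 1.55, 1.48 and 0.886 CPM in *Cldn2*KO recovery, above all *Cldn2*KO controls (1.07, SE 0.600, adjusted p 0.232 in edgeR).

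edgeR called 0 members in recovery in either genotype, although 22.2% of all genes tested were called in WT and 19.4% in *Cldn2*KO mice. At an unadjusted p under 0.05 it gave 2 in WT (*Nos1* and *Ret*), against 36.3% of all genes, and 1 in *Cldn2*KO mice (*Vip*), against 32.5%. limma-voom called 2 members in each genotype, *Vip* and *Nos1* in WT, against 47.7% of all genes, and *Vip* and *Chat* in *Cldn2*KO mice, against 33.8%. DESeq2 called 0 in WT, against 27.2%, and *Vip* in *Cldn2*KO mice, against 23.9%. The groups were apart and lower for 2 members in WT, against 20.9% of all genes, and for 1 member in *Cldn2*KO mice, against 20.5%, where 1 was apart and higher, against 19.9%. Without WT control replicate 2, which lacked *Hoxb13* as the recovery libraries did, 0 members were called in WT recovery, at log2 fold changes of -1.31 for *Vip* (adjusted p 0.0699 in edgeR), -1.71 for *Nos1* (adjusted p 0.135 in edgeR) and -0.91 for *Ret* (adjusted p 0.269 in edgeR). The difference in response between genotypes gave 0 members called with edgeR, DESeq2 and limma-voom, against 0.13%, 7.56% and 10.4% of all genes, and 0 at an unadjusted p under 0.05. It was 1.30 for *Chat* (SE 0.860, adjusted p 0.444 in edgeR), 1.17 for *Nos1* (SE 1.03, adjusted p 0.589 in edgeR) and 0.92 for *Ret* (SE 0.733, adjusted p 0.539 in edgeR) on the log2 scale.

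Over the list of 20 neuron genes, 1 rose and 0 fell in recovery in each genotype, and the medians were -0.52 in WT and 0.04 in *Cldn2*KO mice. Of all genes tested, 10% were called higher and 12.2% lower in WT, and 9.43% higher and 10% lower in *Cldn2*KO mice. The gene that rose was *Chrnb4*, a subunit of the nicotinic acetylcholine receptor, from 3.06 ± 1.74 to 12.8 ± 2.81 CPM in WT (log2 fold change 2.08, SE 0.373, adjusted p 0.00207 in edgeR) and from 2.18 ± 0.326 to 10.6 ± 1.14 CPM in *Cldn2*KO mice (2.28, SE 0.378, adjusted p 0.00107 in edgeR). All 6 recovery libraries, at 9.26 to 15.97 CPM, were above all controls. Its partner subunit *Chrna3* had log2 fold changes of -0.54 and 0.17 and was not called. The glia list had 2 of 12 genes higher in *Cldn2*KO recovery, where 9.43% of all genes were called higher, *Mbp* (0.87, SE 0.162, adjusted p 0.00216 in edgeR), a myelin protein gene, and *L1cam* (1.22, SE 0.325, adjusted p 0.0167 in edgeR), a neural cell adhesion gene, and 0 called in WT. *Erbb3*, a receptor that epithelial cells also carry, held 64.7% of the reads of the glia list, so its sum does not follow glia alone.

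The Ret and endothelin list had 1 gene higher and 2 lower of 9 in WT recovery, where 22.2% of all genes were called. *Nrtn*, which encodes the ligand neurturin, rose from 1.03 ± 0.372 to 3.27 ± 0.985 CPM (log2 fold change 1.66, SE 0.470, adjusted p 0.0206 in edgeR), while its coreceptor *Gfra2* fell from 3.70 ± 1.004 to 0.975 ± 0.232 CPM (-1.91, SE 0.486, adjusted p 0.0124 in edgeR). *Artn*, the artemin gene, fell from 0.654 ± 0.121 to 0.150 ± 0.144 CPM (-2.12, SE 0.653, adjusted p 0.0305 in edgeR). In the WT recovery libraries 3 reads are 0.122 to 0.215 CPM, so this call rests on few reads. In *Cldn2*KO recovery, 2 of the 9 genes rose, beside 9.43% of all genes called higher, *Edn3*, the ligand of Ednrb, from 2.20 ± 0.644 to 19.9 ± 15.8 CPM (3.17, SE 0.843, adjusted p 0.0167 in edgeR) and *Ece1*, the protease that activates endothelins, from 62.6 ± 5.75 to 117.5 ± 18.2 CPM (0.91, SE 0.217, adjusted p 0.00907 in edgeR). In WT recovery the log2 fold change of *Edn3* was -1.03 (SE 0.767, adjusted p 0.357 in edgeR). The log2 difference of *Edn3*, *Cldn2*KO against WT, was -3.402 in controls (adjusted p 0.06859 in edgeR). In recovery it was 0.8056 (adjusted p 0.6102 in edgeR). The difference in response between genotypes was called for 0 of the 9 genes. In WT control replicate 2 the list summed to 208.8 CPM, against 97.67 and 74.52 CPM in replicates 1 and 3. The part of *Edn3* in these sums was not tested. No neuropeptide gene was called in recovery, with medians of 0.10 in WT and 1.30 in *Cldn2*KO mice. Without WT control replicate 2, 1 neuropeptide gene was higher and 1 lower in WT (median 0.92), and the Ret and endothelin list had 1 higher and 1 lower.

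Smooth muscle genes fell in recovery, where 12.2% of all genes were called lower in WT and 10% in *Cldn2*KO mice, and 10% and 9.43% higher. Without WT control replicate 2, 13.3% were called lower and 11.8% higher in WT. Of the 12, 9 fell in WT (median -1.83), also 9 without WT control replicate 2, and 12 in *Cldn2*KO mice (median -2.89). *Myh11*, the smooth muscle myosin, stood at 257, 421 and 193 CPM in WT recovery against 982 to 1547 CPM in the controls, and the summed level of the list was 946 to 2495 CPM in WT and 1077 to 1819 CPM in *Cldn2*KO recovery against 9262 CPM or more in the *Cldn2*KO controls. Enteroendocrine genes, which share secretory vesicle proteins with neurons, were called mostly higher, with 4 of 10 higher in WT and 6 higher and 1 lower in *Cldn2*KO mice. Without WT control replicate 2 they had 4 higher and 2 lower in WT. *Chga*, which encodes chromogranin A, rose from 42.5 ± 8.61 to 165 ± 57.0 CPM in WT (log2 fold change 1.96, SE 0.478, adjusted p 0.0107 in edgeR). Epithelial genes had 5 of 9 lower in WT (4 without WT control replicate 2) and 0 called in *Cldn2*KO mice, and skeletal muscle genes had 1 of 5 lower in WT (3 without that library) and 3 in *Cldn2*KO mice. Fibroblast genes had 3 of 6 lower in each genotype, leukocyte genes 2 of 6 lower in each with 1 higher in *Cldn2*KO mice, and of the 3 genes of interstitial cells of Cajal, *Kit* rose by 1.02 in WT and 1.47 in *Cldn2*KO mice (adjusted p 0.0440 and 0.00846 in edgeR), a call lost in WT without WT control replicate 2, and *Ano1* fell by 2.95 in WT and fell by 3.69 in *Cldn2*KO mice on the log2 scale (adjusted p 0.00675 and 0.00230 in edgeR). Squamous epithelium genes had 2 of 5 lower in each genotype. Adipocyte genes had 1 of 4 lower in WT, or 1 higher and 0 lower without WT control replicate 2, and 1 of 4 higher in *Cldn2*KO mice. Tuft cell genes had 0 of 6 called in WT and 1 higher in *Cldn2*KO mice, and melanocyte genes 0 of 2 called in either. The part of region or of these other cell types in the values of the members was not tested.

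Genotypes were compared in control colon and in recovery. In controls the means were 41.1 ± 16.7 CPM of *Vip* in WT and 53.5 ± 1.98 in *Cldn2*KO mice, 14.3 ± 6.35 and 14.5 ± 4.70 CPM of *Uchl1*, and 6.89 ± 2.04 and 6.25 ± 1.04 CPM of *Elavl4*. They were 2.98 ± 1.53 and 2.99 ± 0.493 CPM of *S100b*, and 2.17 ± 1.02 and 3.205 ± 0.572 CPM of *Sox10* (SD, n = 3). The WT means include replicate 2, which lacked *Hoxb13*, while all *Cldn2*KO controls held it. That library had 4.71 CPM of *S100b*, against 1.81 and 2.41 CPM in WT control replicates 1 and 3. Fitted log2 differences ran from -0.28 for *Chat* (SE 0.615) to 0.57 for *Sox10* (SE 0.523, adjusted p 0.721 in edgeR). Leaving out each library in turn, *Sox10* ran from 0.299 to 0.956 and *Vip* from 0.0882 to 0.704. edgeR called 0 members in controls, against 1.17% of all genes, with 0 at an unadjusted p under 0.05 and 0 with DESeq2 and limma-voom, against 4.07% and 14.9%. The SEs of these differences, 0.396 to 0.720 on the log2 scale, set what could be detected with 3 libraries a group.

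In recovery, all 8 members had a positive fitted value in *Cldn2*KO against WT, with a median log2 difference of 0.63 against 0.00 over all genes tested, though *Vip* and *S100b* changed sign when a library was left out. *Nos1* (1.30, SE 0.743, adjusted p 0.351 in edgeR), *Ret* (0.82, SE 0.524, adjusted p 0.412 in edgeR) and *Chat* (1.02, SE 0.600, adjusted p 0.367 in edgeR) had all *Cldn2*KO libraries above all WT libraries, 3 members against 12.3% of all genes tested. edgeR called 0 members, against 0.974% of all genes, with 0 at an unadjusted p under 0.05 and 0 with DESeq2 and limma-voom, against 10.3% and 11.2%. These libraries all lacked *Hoxb13*, so the comparison is within 1 side of the regional split.

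The balance between members was read as reads of a gene for each read of *Elavl4* in the same library, which does not depend on scaling. *Vip* split the libraries along *Hoxb13*. It had 6.87 to 11.2 reads per *Elavl4* read (median 9.12) in the 11 libraries with *Hoxb13* and 1.94 to 5.16 (median 2.74) in the 7 without it. Among the WT controls the ratio was 6.98 and 10.4 in replicates 1 and 3 and 2.64 in replicate 2, the 1 control that lacked *Hoxb13*. In AOM/DSS, where all libraries had *Hoxb13*, the ratio was 8.27 to 11.2 in WT and 8.44 to 9.12 in *Cldn2*KO mice, within or near the 6.87 to 9.87 of the *Cldn2*KO controls. The ratio of *Vip* to *Elavl4* in AOM/DSS thus overlapped that of the controls with *Hoxb13*, and in recovery it lay below that of every control with *Hoxb13*. No test was made of this split, which was seen in the data, and the recovery treatment and the lack of *Hoxb13* cannot be told apart in it beyond WT control replicate 2.

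All 7 ratios to *Elavl4* had a lower median in the libraries without *Hoxb13* than in those with it, and outside *Vip* the ranges overlapped. The 7 ratios share 1 denominator, so they are not separate observations. *Elavl4* itself was at 0.709 to 2.36 CPM in WT AOM/DSS and at 1.71 to 4.67 CPM in *Cldn2*KO AOM/DSS, whose libraries all held *Hoxb13*. The part of *Elavl4* in these medians was not tested. The medians without and with *Hoxb13* were 0.128 and 0.133 for *Chat*, 0.469 and 0.500 for *S100b*, 0.355 and 0.546 for *Sox10*, and 1.80 and 2.32 for *Uchl1*. *Nos1* had 0.400 to 3.81 reads per *Elavl4* read (median 2.61) in the 11 libraries with *Hoxb13* and 0.647 to 2.85 (median 1.01) in the 7 without. Its lowest ratios with *Hoxb13* were 0.780 and 0.400, in WT AOM/DSS replicates 1 and 3, the latter from 6 *Nos1* and 15 *Elavl4* reads, while replicate 2 had 3.17, against 2.22 to 3.81 in *Cldn2*KO AOM/DSS and 2.25 to 2.65 in the *Cldn2*KO controls. *Ret* had 0.848 to 1.69 reads per *Elavl4* read (median 0.971) in the 7 libraries without *Hoxb13* and 1.39 to 29.4 (median 1.99) in the 11 with it. The value of 29.4 was WT AOM/DSS replicate 3, and the next highest was 6.46 in *Cldn2*KO AOM/DSS replicate 3.

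**Figure D5:**
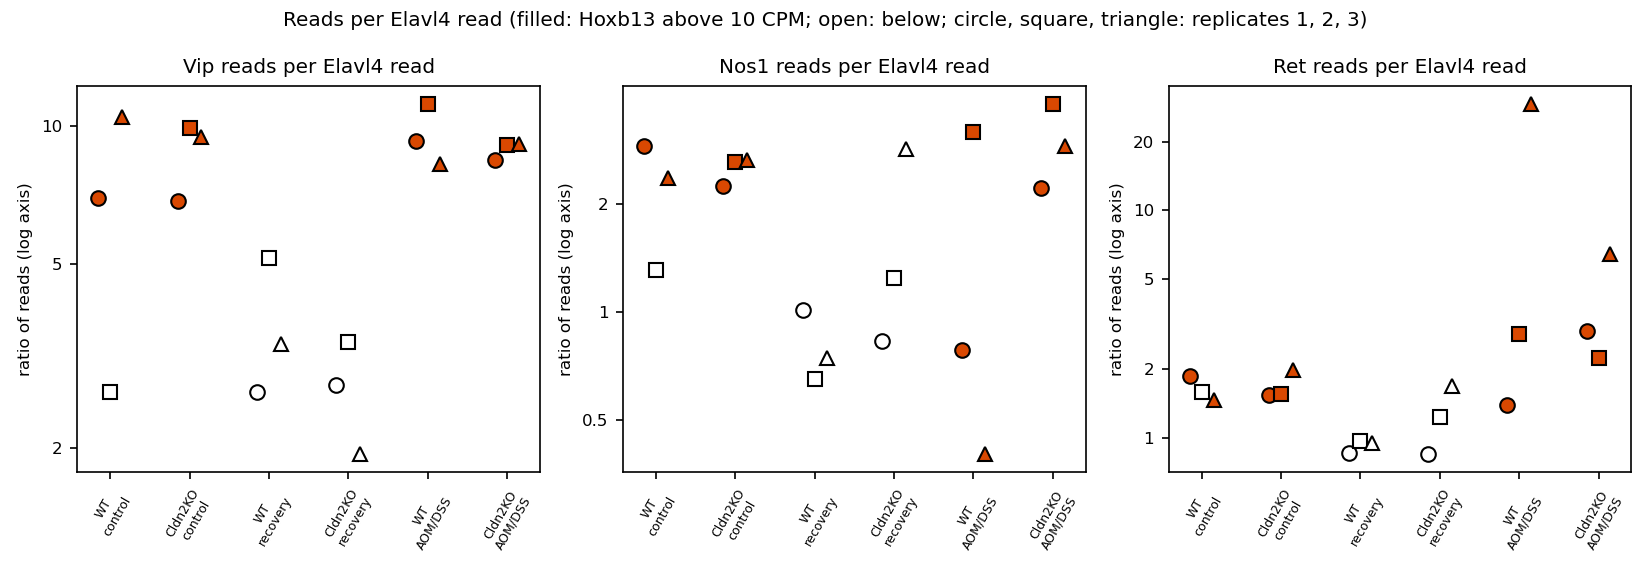
Reads of *Vip*, *Nos1* and *Ret* per *Elavl4* read (vertical log axis) in the libraries of the 6 groups (horizontal axis), filled where *Hoxb13* was above 10 CPM and open below. Open symbols of *Vip* lie at 1.94 to 5.16 and filled ones at 6.87 to 11.2, while *Nos1* and *Ret* overlap.

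The members were correlated across libraries, which share group, region and depth, so the values are descriptions. Over the 28 pairs and 18 libraries, Pearson's r of log2 CPM had a median of 0.73 and ran from -0.15 to 0.93. *Elavl4* and *S100b* were the closest pair by Pearson's r (0.93, Spearman's rho 0.76), followed by *Elavl4* with *Chat* and *Uchl1* and *Chat* with *S100b* (r = 0.87 for each). By Spearman's rho the closest pair was *Uchl1* and *S100b* (0.86). *Ret* was the outlying member, with r between -0.15 and 0.33 against the other 7. The genes outside all lists whose log2 CPM followed the mean z-score of the 8 members most closely over the 18 libraries were *Gnao1* (r = 0.98), *Dlg2* (0.98), *Fgf13* (0.97), *Ank2* (0.97), *Nsg1* (0.97), *Ppp2r2c* (0.97), *Rtn1* (0.97), *Tub* (0.97), *Kif5a* (0.96) and *Lonrf2* (0.96). Without WT control replicate 2, 9 of these 10 remained among the 10 closest. Among listed genes, *Gap43* (r = 0.97), which encodes a growth cone protein, and *Gfra1* (0.96) were among the closest.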

How the data were processed

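RNA-seq was made from colon RNA of 18 mouse samples. The authors sequenced the libraries on a NovaSeq instrument and deposited raw read counts per gene in 36 columns, 2 lanes per library. The submitters' processing notes name HISAT2, Subread, featureCounts and GRCm38, and the study's methods name TopHat2 and featureCounts. Versions, annotation release and strand setting are not given in the sources used here, so counts of overlapping genes may hold reads of both.

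Lanes were summed, since lane differences were near counting noise (a chi-square of 1.08 to 1.17 for each degree of freedom). Symbols and coordinates came from GENCODE M21 (GRCm38), which matched 47310 of 47729 genes. Libraries held 17.6 to 27.4 M reads (median 19.6), which sets the precision of the low counts. Genes were filtered with filterByExpr, scaled with TMM and fitted with a mean per group in edgeR 4.0.16 (R 4.3.3) over all 18 libraries. Comparisons were genotype within treatment, treatment against control within genotype, and their interaction, with Benjamini-Hochberg adjustment over 16937 genes and calls made under 0.05. Levels are TMM-scaled CPM, and log2 CPM for correlations used a prior count of 2. The fit was tested on simulated data.

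The members and lists were chosen with earlier results of these data known. Named genes are the 8 members, up to 4 called genes per list and comparison with the smallest adjusted p, and the 10 genes closest to the mean z-score of the members. Genes named beyond that rule were chosen after their values were seen. Alternatives were RLE and upper-quartile scaling, no filter, DESeq2 1.42.0, limma-voom 3.58.1 with sample weights, only the groups compared, sex by *Xist* as a covariate, leaving out libraries, and a replicate block. Promoter windows came from RefSeq (GRCm38.p6). Values of 1 gene of the neuron list are not reported here, and it stays in the counts and sums of that list.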

Additional observations from a re-analysis of the deposited data

How the results depend on the processing

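Counts of members called kept within 1.5 times of their main value under every setting not named here. In WT AOM/DSS against control, where 3 members were called, DESeq2 called 5, a fit of only the groups compared 0, and leaving out each library in turn 0 to 4. Leaving out WT control replicate 2 and WT AOM/DSS replicate 3 together, chosen after seeing the data, called 0. The list counts without either library were added likewise. In *Cldn2*KO AOM/DSS against control, limma-voom called 3. In recovery against control, limma-voom and a fit of only the groups compared called 2 each in WT, and limma-voom called 2 and DESeq2 and the fit of only the groups compared 1 each in *Cldn2*KO mice. Same-numbered WT and *Cldn2*KO controls had correlated deviations of 0.158, 0.002 and 0.079, so the numbers do not pair these controls, and the fit of the control libraries with a replicate block called 0 members between genotypes, as without it. The labels number no other group, so no block was fitted elsewhere. The cause of these differences was not tested.

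Fitted log2 fold changes close to 0 changed sign. Leaving out each library in turn, *Cldn2*KO against WT in controls ran from -0.28 to 0.11 for *Elavl4*, -0.29 to 0.40 for *Uchl1*, -0.28 to 0.11 for *Ret* and -0.25 to 0.48 for *S100b*, and in recovery from -0.14 to 0.33 for *Vip* and -0.31 to 0.51 for *S100b*. *Ret* ran from -0.44 to 1.09 between genotypes in AOM/DSS, from -1.24 to 0.29 in AOM/DSS against control in WT and from -0.43 to 0.28 in *Cldn2*KO mice, where *Chat* ran from -0.56 to 0.18. In recovery against control *S100b* ran from -0.30 to 0.43 in WT and from -0.36 to 0.46 in *Cldn2*KO mice, *Uchl1* from -0.30 to 0.18 and *Sox10* from -0.74 to 0.0678 in *Cldn2*KO mice. With limma-voom the signs changed for *Elavl4* (0.21) and *Ret* (0.17) between control genotypes, for *Elavl4* (0.0152), *Chat* (0.0839) and *S100b* (0.29) in WT recovery, for *Uchl1* (0.0503) in *Cldn2*KO recovery and for *Ret* (0.0143) in *Cldn2*KO AOM/DSS. With sex as a covariate they changed for *S100b* in WT recovery (0.13) and for *Ret* between genotypes in AOM/DSS (-0.37). With 0 to 32 reads of *Chat* per library, 8 to 93 of *Sox10* and 4 to 96 of *S100b*, depth limits these genes most.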
